A study of Mus musculus with 10 samples.

Results

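The RIKEN-493 genes are those whose symbol begins with these digits and ends with Rik. They are mouse genes that still carry the name of the RIKEN cDNA clone, from testis libraries, in which they were first found, and most have no assigned function. The rule found 379 of the 15507 genes listed. By the opening characters of the clone name, 258 belonged to the series RIKEN-4930, 20 to RIKEN-4931, 11 to RIKEN-4932 and 90 to RIKEN-4933. RefSeq classed 268 of them as long noncoding RNA (lncRNA), 97 as protein-coding, 13 as transcribed pseudogenes and 1 as another RNA.

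The testis transcribes an unusually large part of the genome, and many lncRNAs and late-arising coding genes are read mainly in meiotic and post-meiotic germ cells. Spermatids store mRNA in ribonucleoprotein particles and use it after transcription has stopped in the condensing nucleus. GRTH (DDX25) is a germ cell RNA helicase that exports such mRNAs, stores them in the chromatoid body of round spermatids and passes them to the ribosomes.

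The study compared 5 WT mice with 5 homozygous GRTH-KI mice, all 45 days old. A germ cell suspension was made from the testes of each mouse by collagenase and trypsin digestion, and 1 oligo(dT) library was sequenced from it. In the KI mice human GRTH bears an arginine-to-histidine missense mutation, which removes the phosphorylated form of GRTH. Their spermatids stop at the round stage. Cells from spermatogonia to spermatids were sequenced together without sorting, and their proportions can differ between genotypes. The 10 libraries held 12722086 to 16422347 reads on genes. Values are the authors' normalized counts, that is, the reads of a gene divided by a size factor of the library.

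The targeted gene was checked in every library. Mouse Ddx25 was at 7615, 7782, 5198, 11101 and 9458 normalized counts in WT 1 to 5 and 146, 194, 161, 2.88 and 1.84 in KI 1 to 5, so that KI 4 and KI 5 held no more than 3 reads of it. The 10 markers of elongating spermatids (such as Tnp1, Prm1 and Akap4) all fell in KI, and their summed level was 257768 to 458368 in WT and 38445 to 74866 in KI. None of 9 spermatocyte markers and none of 8 spermatogonial markers passed the test, and 1 of 8 round spermatid markers fell. The round spermatid list had a median change of -0.45, and its summed level was 22135 to 25445 in WT and 13557 to 20676 in KI, without overlap. Among cells outside the germ line, 3 of 7 Leydig markers, 5 of 8 macrophage markers, 2 of 4 tested peritubular myoid markers and 2 of 5 endothelial markers rose in KI, whereas none of 8 Sertoli markers was called. The summed macrophage level was 766 to 1010 in WT and 1154 to 1525 in KI, and the summed Leydig level was 10291 to 18066 in WT and 14779 to 25692 in KI. The part of these shifts in the results below was not tested, and in bulk RNA fewer cells of a type and less RNA per cell cannot be told apart.

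Fewer transcripts of the RIKEN-493 genes were found in KI germ cells. Their summed level was 185899.7, 196350.3, 187003, 157420.3 and 151749.6 normalized counts in WT 1 to 5, and 118249.6, 120788, 116849, 116988 and 100412 in KI 1 to 5. Every KI library lay below every WT library. As a share of all reads on genes, the RIKEN-493 genes took 1.10% ± 0.0949 in WT and 0.845% ± 0.0829 in KI (SD, n = 5 each). A pair of highly expressed coding genes, 4933411K16Rik and 4930571K23Rik, accounted for 49.5% of the difference between the mean sums. Without them the sums were 122764 to 151583 in WT and 94411 to 112652 in KI, which still did not overlap.

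Of the 379 genes, 371 had enough reads to be tested (limma on log2 values, adjusted over 15389 genes), and the 8 others averaged at most 10.8 normalized counts. At an adjusted p under 0.05 and a fold change of at least 1.5, 108 were down-regulated (29.1%) and 13 up-regulated (3.504%) in KI. Over all genes tested, 8.22% were down-regulated and 6.13% up-regulated, 14.4% in all. The fitted change was below 0 for 293 of the 371, and its median was -0.39 on the log2 scale (quartiles -0.79 and -0.04), beside 0.03 over all genes. The values of the 2 genotypes did not overlap for 115 of the 371, of which 105 were lower and 10 higher in KI (17.7% of all genes did not overlap, 10.9% lower and 6.8% higher). Of the 108 down-regulated genes, 59 fell by at least 2-fold and 10 by at least 4-fold. Of the latter, 6 were lncRNAs below 100 normalized counts in WT, a class singled out after its values were seen. The lowest fold change was that of 4930552N02Rik, at 61.7, 65.9, 53.1, 18.1 and 25.4 in WT and 4.42, 6.08, 4.12, 1.92 and 0.92 in KI (log2 fold change -3.33 ± 0.43, adjusted p = 5.33e-05), with at most 7 reads in a KI library.

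Falls outnumbered rises under each of the scalings tried (the deposited one, library totals, upper quartile and TMM), by different margins. Scaled to library totals, 73 of the RIKEN-493 genes were down-regulated and 31 up-regulated, and their median was -0.17 where that of all genes was 0.25. Under this scaling 5.13% of all genes were down-regulated and 13.9% up-regulated, against 19.7% and 8.36% of the members. Libraries 1 to 3 and libraries 4 and 5 differ in read quality in the study's read summary, and each set was also fitted alone. In libraries 1 to 3, 113 members were down-regulated and 24 up-regulated, beside 8.69% and 7.15% of all genes, and 95 of the 108 falls and 12 of the 13 rises kept their call. In libraries 4 and 5, 75 were down-regulated and 7 up-regulated, beside 7.06% and 3.07% of all genes, and 68 of the falls and 5 of the rises kept their call. The sets are parts of the libraries on which the genes were called.

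**Figure D1:**
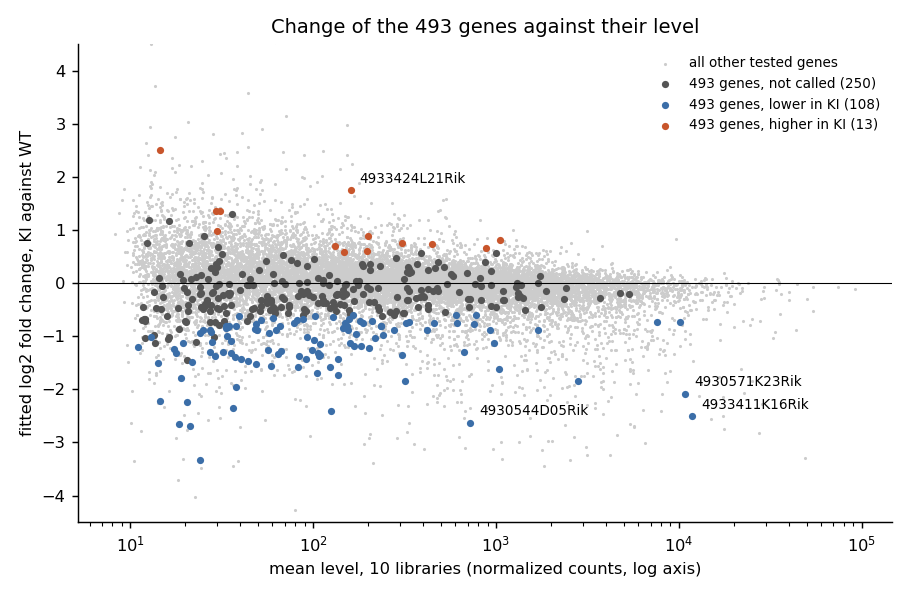
Fitted log2 fold change of KI against WT (vertical axis) against the mean normalized count over 10 libraries (horizontal log axis), with 1 point per gene; 6 other genes lie outside the vertical range. The 108 down-regulated RIKEN-493 genes run over the whole range of levels, and the 13 up-regulated ones do not reach the highest levels.

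Most down-regulated members were lncRNAs, which were also most of the members tested (262 of 371). Of 262 tested RIKEN-493 lncRNAs, 84 were down-regulated (32.1%) and 6 up-regulated (2.29%), with a median of -0.44. Of 96 coding members, 23 were down-regulated (24.0%) and 5 up-regulated (5.21%), with a median of -0.25. Over all tested genes, lncRNAs were down-regulated in 27.1% and up-regulated in 2.19%, and coding genes in 6.96% and 6.40%. All lncRNAs include the RIKEN-493 ones, and the differences between these shares were not tested.

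Genes of another testis clone series, with symbols that begin with 1700 and end with Rik, gave 116 down-regulated and 1 up-regulated of 284 tested (40.8% and 0.352%), with a median of -0.49. All remaining Rik genes, which were not sorted by the tissue of their library, gave 33 and 10 of 326 (10.1% and 3.07%), with a median of -0.02. Genes not named Rik gave 1008 and 920 of 14408 (6.996% and 6.39%). Among the RIKEN-493 genes, the clone series RIKEN-4930 had 80 falls and 7 rises of 253 (median -0.45), RIKEN-4933 had 24 and 4 of 87 (median -0.31), RIKEN-4931 had 3 and 1 of 20 (median -0.16) and RIKEN-4932 had 1 and 1 of 11 (median -0.35).

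On chromosome X called rises outnumbered called falls, though 12 of the 21 tested members had a fitted change below 0. Only 1 of the 4 rises there was without overlap between genotypes. There 1 of 21 tested members fell and 4 rose (4.76% and 19.0%), with a median of -0.14, while on the autosomes 107 of 350 fell and 9 rose. All X-linked genes gave 47 falls and 89 rises of 650 (7.23% and 13.7%), with a median of 0.17. The X chromosome is silenced in spermatocytes, and part of its genes are read again in spermatids. Falls were found on 20 of the 20 chromosomes that hold members.

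**Figure D2:**
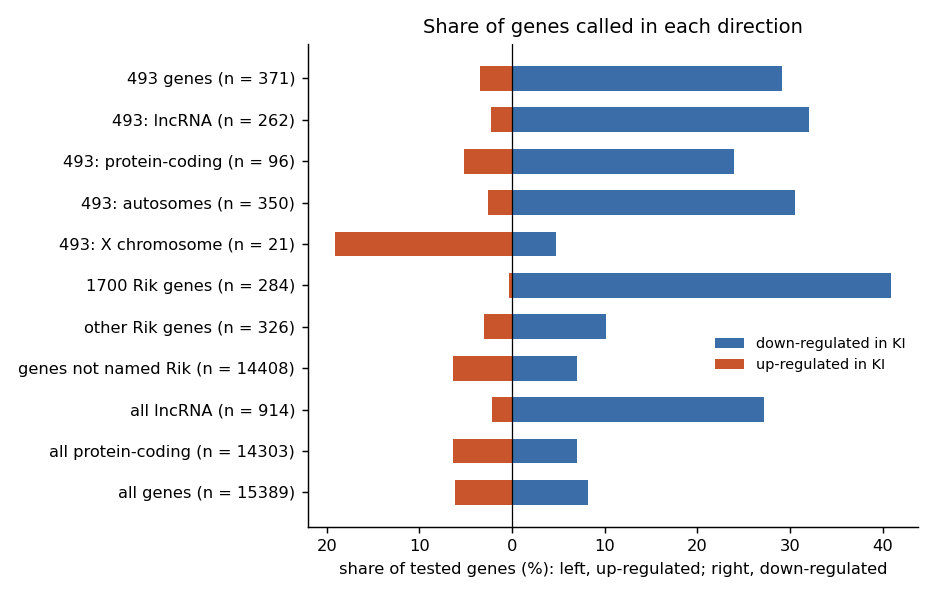
Share of tested genes (horizontal axis, %) down-regulated (to the right of 0) and up-regulated (to the left) in KI, for the RIKEN-493 genes, their classes and other gene lists, with the number tested beside each; the lists of all genes include the RIKEN-493 genes. Down-regulated shares were 29.1% for the RIKEN-493 genes, 40.8% for the 1700 genes and 8.22% for all genes.

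The highest of all members in level was 4933411K16Rik, a short coding gene that lies within Hoga1 and is the counterpart of human C10orf62 (chr19:42052228-42053628, mm10). Its level was 21606, 23734, 24864, 14756 and 15564 normalized counts in WT 1 to 5 and 3494, 3694, 3735, 3699 and 2721 in KI 1 to 5, which puts each KI library far below the lowest WT library. The mean fell from 20105 ± 4672 to 3469 ± 428 (SD, n = 5 each). The log2 fold change was -2.51 ± 0.15 (SE), with an adjusted p of 3.97e-08 by limma. Per kilobase of exon it was also the highest of the 353 members with a known length, at 8541 normalized counts.

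Next came 4930571K23Rik, a coding gene that no other annotated gene overlaps (chr7:125368861-125371013). It stood at 20090.5, 21033, 21419, 12175 and 13422 in WT 1 to 5 and at 4402, 4443, 4268, 3951 and 3279 in KI 1 to 5. The groups were again far apart, with a fall from 17628 ± 4457 to 4069 ± 482 and a log2 fold change of -2.08 ± 0.16 (SE; adjusted p = 3.25e-07). Its neighbour 4933440M02Rik, 19075 bases away, had a fitted log2 change of -0.02 (adjusted p = 0.94).

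The largest fall among members above 100 normalized counts was in 4930544D05Rik, a small coding gene and counterpart of human C17orf107 (chr11:70615894-70616890). Its values were 1322, 1524, 1708, 839 and 808 in WT 1 to 5 and 233, 287, 293, 133 and 96.6 in KI 1 to 5, so that the highest KI library was well below the lowest WT library. The log2 fold change was -2.63 ± 0.30 (adjusted p = 1.34e-05). It lies on the opposite strand within Chrne, which encodes a subunit of the muscle acetylcholine receptor, and strand-specific counting is not stated. Chrne was measured at 245, 225, 283, 218 and 183 in WT 1 to 5 and 318, 328, 385, 297 and 167 in KI 1 to 5, overlapping ranges with a fitted change of 0.33 (adjusted p = 0.233).

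A further coding gene, 4930503B20Rik (chr3:146645189-146685485), fell from 4367 ± 1457 to 1232 ± 443. Its libraries were 5086, 5575, 5582, 3017 and 2572 in WT 1 to 5 and 1519, 1655, 1452, 915 and 620.1 in KI 1 to 5, with libraries 4 and 5 the lowest of each genotype. The log2 fold change was -1.84 ± 0.27 (adjusted p = 0.000169). The lncRNA Gm16325, which overlaps it on the other strand, also fell (-0.98, adjusted p = 1.5e-05).

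Among lncRNAs above 100 normalized counts the largest fall was in 4930428D20Rik (chr16:69796141-69800381). Its WT libraries held 228, 249.7, 252, 142 and 171 normalized counts and its KI libraries 60.2, 45.2, 36.0, 47.1 and 15.6, a clear separation with KI 5 the lowest (log2 fold change -2.41 ± 0.29, adjusted p = 2.46e-05). For 4930406D18Rik (chr3:100426405-100437754) the values were 541, 599, 592, 356 and 397 in WT and 165, 177, 162, 119 and 77.3 in KI (log2 fold change -1.85 ± 0.22, adjusted p = 1.93e-05). Neither gene is overlapped by another annotated gene.

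The lncRNA 4930471G03Rik is antisense to Nrg2, which encodes a neuregulin growth factor. Among the 10 largest falls above 100 normalized counts without overlap, 4930471G03Rik was the most abundant lncRNA. Values were 1609, 1689, 1740.5, 1359 and 1479.6 in WT and 472, 570.1, 598, 553 and 378 in KI (log2 fold change -1.63 ± 0.12, adjusted p = 3.16e-07). The spread within each genotype was small against the gap between them. Nrg2 itself was too low to be tested, at 4.01 to 9.66 in WT and 8.24 to 22.1 in KI.

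A further 3 lncRNAs closed the list of the 10 largest falls among members above 100 normalized counts without overlap between genotypes. 4930412O13Rik (chr2:9881246-9886767), whose span meets those of Gata3 and 9230102O04Rik in GENCODE, was at 217, 200.02, 239, 188 and 216 in WT and 70.8, 59.1, 71.0, 65.4 and 49.7 in KI (log2 fold change -1.74 ± 0.13, adjusted p = 3.28e-07). For 4930572K03Rik (chr5:127170565-127184356) WT libraries held 176, 180.4, 170.3, 142 and 131 and KI libraries 56.6, 53.9, 38.1, 61.5 and 35.9 (log2 fold change -1.70 ± 0.18, adjusted p = 5.65e-06). Those of 4933412O06Rik (chr13:15781664-15802630) held 123, 143, 118, 126 and 108 and 56.6, 40.8, 54.6, 36.5 and 23.9 (log2 fold change -1.58 ± 0.21, adjusted p = 5.92e-05). In all 3 every KI library lay below every WT library, as the rule for this list required.

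**Figure D3:**
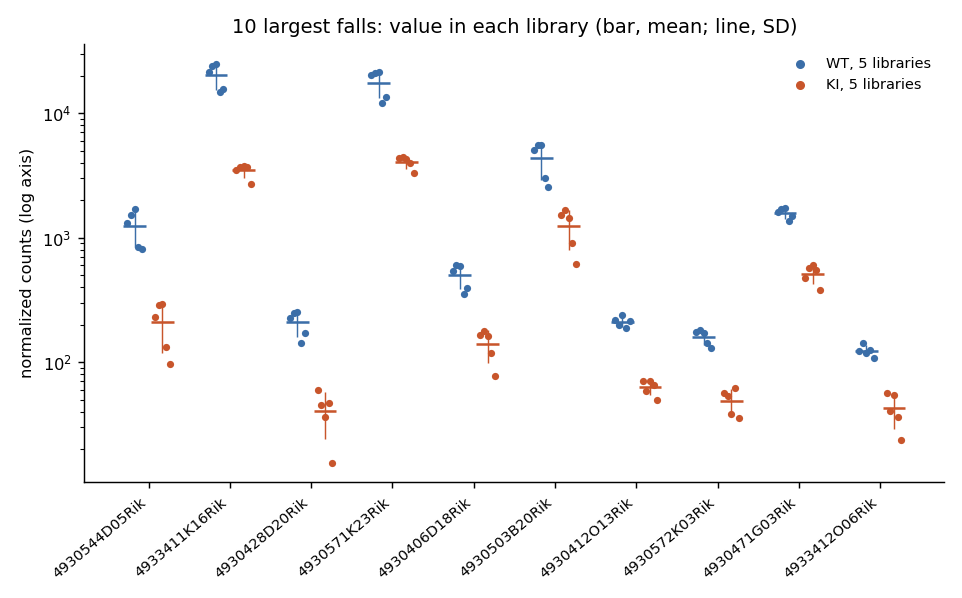
Normalized counts (vertical log axis) of the 10 largest falls among called members above 100 normalized counts without overlap between genotypes. Each of 5 WT and 5 KI libraries has 1 point per gene, with horizontal bars for means and vertical lines for the SD. All 5 KI points lie below all 5 WT points in each gene because the rule for this list required it.

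The promoters of the 2 most abundant falling genes and of 4930412O13Rik are given because the first pair fell most in normalized counts and the last holds the letters TGACGTCA. Each runs from 250 bases before to 50 bases after the RefSeq start (GRCm38.p6, the sequence of mm10), 5′ to 3′ on the strand of the gene. Capitals mark the letters of a cAMP-response element (TGACGTCA) or its part TGACGT, on either strand. CREM, an activator of spermatid genes, can bind this element, and binding was not tested. Also in capitals are the letters TATAAA, the CCAAT box and the GC box GGGCGG, on either strand. The windows are chr19:42051978-42052277 and chr7:125368611-125368910 and chr2:9880996-9881295, all on the plus strand.
4933411K16Rik: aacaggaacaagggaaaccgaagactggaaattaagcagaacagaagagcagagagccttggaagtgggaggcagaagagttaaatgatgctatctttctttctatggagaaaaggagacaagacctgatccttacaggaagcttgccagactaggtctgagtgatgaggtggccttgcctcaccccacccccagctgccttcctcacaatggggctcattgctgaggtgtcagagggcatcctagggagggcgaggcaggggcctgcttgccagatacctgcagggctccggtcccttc
4930571K23Rik: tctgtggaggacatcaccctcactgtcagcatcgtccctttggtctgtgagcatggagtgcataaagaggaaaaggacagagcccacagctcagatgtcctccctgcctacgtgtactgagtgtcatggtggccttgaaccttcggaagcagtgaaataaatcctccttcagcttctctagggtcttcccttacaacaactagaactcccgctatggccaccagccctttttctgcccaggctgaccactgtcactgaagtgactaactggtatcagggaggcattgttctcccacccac
4930412O13Rik: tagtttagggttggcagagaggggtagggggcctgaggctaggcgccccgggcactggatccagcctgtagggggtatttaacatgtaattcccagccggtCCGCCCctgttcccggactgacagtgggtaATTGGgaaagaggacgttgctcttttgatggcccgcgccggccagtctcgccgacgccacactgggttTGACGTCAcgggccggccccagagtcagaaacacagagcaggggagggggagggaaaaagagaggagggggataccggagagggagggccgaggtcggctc

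Neither of the first 2 windows held any of these letters, and their GC content was 54.0% and 52.3%. That of 4930412O13Rik held TGACGTCA 51 bases before the start, with a CCAAT box and a GC box on the other strand, and its GC content was 63.0%. A RefSeq promoter was matched for 309 of the 379 members. A gene was counted when any of its promoters held the letters. TGACGTCA was found in 3 of 93 down-regulated members (3.23%) and in 6 members not called (2.99%). The share was 3.42% of the 12262 tested genes with a promoter and 2.03% of all 27025 genes with a promoter. TATAAA was found in 8.60% of down-regulated members and 11.9% of those not called, beside 9.09% of tested genes and 15.7% of all genes. CCAAT was found in 37.6% and 32.3%, beside 42.7% and 41.1%.

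As a class, promoters of the RIKEN-493 genes were poorer in G and C than those of tested genes, and less so beside all genes. Their median GC content was 49.3%, beside 60.0% over tested genes and 52.7% over all 27025 genes with a promoter. Counted in any promoter of a gene, the GC box was found in 23.9% of the members, beside 62.8% and 38.2%. Tested lncRNA genes as a whole lay between, with 51.7% GC and a GC box in 34.1%. Down-regulated members had a median GC content of 48.7% and members not called 49.7%. These are descriptions of letters in a window and no test was made of them.

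Among members above 100 normalized counts without overlap, the largest rise was in 4933424L21Rik, an lncRNA antisense to Galnt10, which encodes an enzyme that starts O-glycan chains (chr11:57623698-57649494). It was measured at 72.2, 70.5, 78.5, 72.2 and 67.8 in WT 1 to 5 and 225, 279.8, 239, 295 and 203 in KI 1 to 5, with the WT libraries close together and every KI library well above them. The mean rose from 72.2 ± 3.94 to 248 ± 38.3, a log2 fold change of 1.76 ± 0.13 (adjusted p = 1.99e-07). Galnt10 had a fitted change of 0.13 (adjusted p = 0.552). Its promoter, chr11:57649445-57649744 on the minus strand, is shown in the same format, and it held a CCAAT box on the other strand.
4933424L21Rik: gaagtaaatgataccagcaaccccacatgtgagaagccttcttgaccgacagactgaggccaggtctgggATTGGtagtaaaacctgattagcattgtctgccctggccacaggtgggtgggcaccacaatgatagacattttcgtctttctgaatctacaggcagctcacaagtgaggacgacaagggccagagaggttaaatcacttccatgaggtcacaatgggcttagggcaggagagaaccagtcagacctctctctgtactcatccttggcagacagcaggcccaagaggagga

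Another 4 members above 100 normalized counts rose without overlap between genotypes. The lncRNA 4933404O12Rik was at 841, 828, 771, 758 and 622 in WT and 1336, 1331, 1347, 1179 and 1450.0 in KI (log2 fold change 0.80 ± 0.10, adjusted p = 3.09e-05). 4931428F04Rik, the counterpart of KIAA0895L, which removes the terminal tyrosine of tubulin, was at 663, 697, 734, 572 and 730.4 and 1071, 1334, 1215, 1039 and 776 (log2 fold change 0.66 ± 0.13, adjusted p = 0.00186). In that gene KI 5 was the lowest of its genotype and just above the highest WT library, and the call was lost in libraries 4 and 5 alone (0.47, adjusted p = 0.120) and without KI 2 (0.58).

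The coding gene 4930539E08Rik, now Bnip5, had values of 179, 153, 164, 171 and 120.5 in WT and 257, 255, 223, 221 and 231 in KI. Its log2 fold change of 0.60 ± 0.12 (adjusted p = 0.00234) was close to the fold threshold, and the call was lost in 6 of 24 alternative settings. The X-linked coding gene 4930402K13Rik was at 168, 178, 145, 105 and 112 in WT and 297, 262, 299, 222 and 219.9 in KI (log2 fold change 0.89 ± 0.16, adjusted p = 0.000927). It lies inside the spans listed for genes of the multicopy Btbd35f family, of which several rose as well, such as Btbd35f20 (2.15, adjusted p = 2.09e-07). These spans are very wide, chrX:4289286-31383918 for Btbd35f20, so that lying inside them does not make the genes close neighbours. Btbd35f3 and Btbd35f4 had the same values in every library, so their rises are not separate observations. Reads of near-identical copies may have been divided among them.

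The 8 remaining rises were lower in level or overlapped between genotypes. 4930486L24Rik had the largest fitted rise (2.51, adjusted p = 0.00207), from 1.05, 1.16, 6.04, 2.01 and 13.2 in WT to 36.3, 30.4, 22.7, 18.3 and 13.8 in KI. Those WT values are a few reads per library, and WT 5 came close to KI 5. Of the 3 other X-linked rises, 4933428M09Rik was at 359, 318, 318, 315 and 333 in WT and 664, 630.1, 666, 536 and 326 in KI (log2 fold change 0.73 ± 0.17, adjusted p = 0.00453). The transcribed pseudogene 4933401B06Rik was at 251, 222, 227, 199 and 211 in WT and 458, 495, 513, 305 and 201.5 in KI (log2 fold change 0.75 ± 0.21, adjusted p = 0.0183). In both, KI 1 to 3 were about level with each other and high, KI 4 was lower and KI 5 lay within the WT range.

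The last of these X-linked rises, the transcribed pseudogene 4930453H23Rik, had a log2 fold change of 0.70 ± 0.22 (adjusted p = 0.0336). Its span also overlaps the very wide spans listed for Btbd35f genes. The rest were the lncRNAs 4930578N18Rik (1.36, adjusted p = 0.00292), 4930521O11Rik (1.35, adjusted p = 0.0208), 4932435O22Rik (0.97, adjusted p = 0.0337) and 4930511M06Rik (0.59, adjusted p = 0.0108). Without KI 2 the number of rises was 7, and across all libraries left out in turn it ran from 7 to 19.

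**Figure D4:**
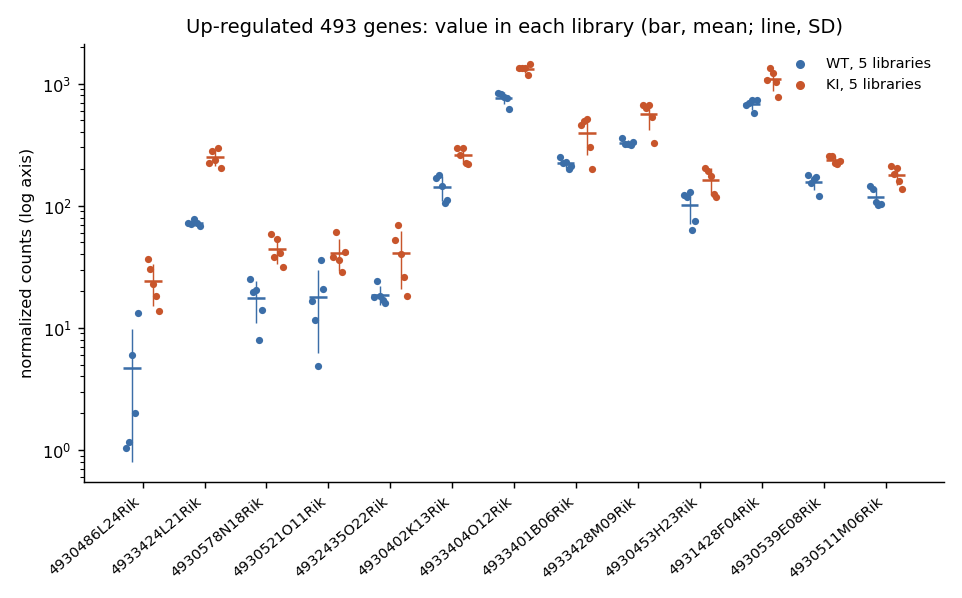
Normalized counts (vertical log axis) of the 13 up-regulated RIKEN-493 genes in each of 5 WT and 5 KI libraries, with 1 point per library, horizontal bars for means and vertical lines for the SD (the lower line of 4930486L24Rik is ended at the axis). The genotypes did not overlap in 7 of the 13 genes.

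Other abundant members changed less. The coding gene 4930453N24Rik, counterpart of human C3orf38, was at 13766, 15193, 13929.6, 10348 and 10076 in WT and 8291, 8426, 7874, 7605 and 5828 in KI (log2 fold change -0.73 ± 0.14, adjusted p = 0.0013). 4933415F23Rik, now Ppp1r14bl and named for its likeness to an inhibitor of protein phosphatase 1, was at 9997, 11073, 10639.6, 8269 and 7339 and 5455, 6453, 5843, 5818 and 4741 (log2 fold change -0.73 ± 0.12, adjusted p = 0.000558). Both fell past the threshold without overlap, though far less than the 2 leading genes. Both calls were lost when scaled to library totals (-0.50 in each), and that of 4933415F23Rik also in libraries 4 and 5 alone (-0.57). 4930544G11Rik was at 5676, 6431, 5650.1, 6126 and 4904 and 4919, 5383, 4848, 5360.1 and 4283, and its change of -0.21 ± 0.10 (adjusted p = 0.138) was not called. Per kilobase of exon, 4933415F23Rik and 4930544G11Rik reached 4246 and 3811 normalized counts, next after the 2 leading genes.

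Of the 250 tested members that were not called, 79 had a 95% interval that lay within a 1.5-fold change in either direction. Of the 250, 30 passed the adjusted p but not the fold, and of these 24 were lower and 6 higher in KI. The uncalled member above 100 normalized counts with the smallest standard error was 4930402H24Rik, counterpart of DNAAF9, a gene for assembly of ciliary dynein. It was at 1357, 1301, 1308, 1277 and 1280.0 in WT and 1306, 1277, 1252, 1390.5 and 1304 in KI, overlapping ranges with a log2 fold change of 0.00 ± 0.07 (95% interval -0.16 to 0.16), or 0.23 when scaled to library totals. 4933427D14Rik, counterpart of the centriolar protein KIAA0753, was at 1064, 1194, 1134, 1166 and 1152 and 1043, 1056, 1022, 1084 and 959 (95% interval -0.31 to 0.02). 4930451G09Rik was lower in every KI library at 766, 863, 778, 839.5 and 899 and 599, 597, 649.7, 589 and 578, and its change of -0.46 (adjusted p = 0.00101) did not reach the fold threshold.

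A pair of members with a known role in meiosis was not called. 4930447C04Rik, also known as Six6os1, encodes part of the synaptonemal complex that joins paired chromosomes. It was at 196, 173, 161, 131 and 123 in WT and 234, 165, 159, 98.1 and 73.6 in KI, a change of -0.20 with a 95% interval of -0.74 to 0.34. 4930432K21Rik, also known as Brme1, acts with BRCA2 in meiotic recombination. Its values were 1234, 1733, 1511, 2047 and 1787 and 1608, 1870.3, 1651, 2051 and 1855, a change of 0.14 with a 95% interval of -0.13 to 0.40. In both the genotypes overlapped widely.

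Many of these genes lie close to others. Of the 181 tested members whose span is overlapped by another annotated gene, 45 fell and 9 rose (median -0.31), and of the 190 that stand alone 63 fell and 4 rose (median -0.46). Among down-regulated members, 29 overlapped a gene of the table, 26 of them on the other strand alone, and for 4 of the 29 the overlapping gene was down-regulated as well (8.22% of all genes were). The median change of those 31 tested overlapping genes was -0.11.

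Head-to-head genes start within 1000 bases of each other and are read in opposite directions, so that they can share a promoter. There were 71 members in 69 such pairs, of which 61 had a coding neighbour. In this class 15 members fell (21.1%) and none rose, beside 29.1% and 3.504% of all members and 8.22% and 6.13% of all genes. Their median was -0.26, and their neighbours had a median of -0.06. The member was the less abundant of the pair, in normalized counts not divided by length, in 56 of 69 pairs. Both genes of the pair fell in 5 pairs, the member alone was called in 9 and the neighbour alone in 6. Among the last, the called neighbour of 4930452B06Rik was 4930455B14Rik, itself a member and counted in the 15. Spans overlap in 22 of the 69 pairs, and strand-specific counting is not stated, so reads of those genes may not be told apart.

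The pair of 4933421O10Rik, an lncRNA, and Ube2j1, which encodes a ubiquitin-conjugating enzyme of the endoplasmic reticulum needed for spermatid differentiation, fell together. Their starts are 57 bases apart. 4933421O10Rik was at 832, 934, 1054, 1027 and 892 in WT 1 to 5 and 405, 455, 433, 362 and 296 in KI 1 to 5, all KI libraries far below all WT libraries (log2 fold change -1.29 ± 0.12, adjusted p = 2.08e-06). Ube2j1 was at 7147, 7999.6, 8220.3, 5571 and 5849.6 in WT and 3199.9, 3291, 3282, 3423 and 2757 in KI (log2 fold change -1.11 ± 0.12, adjusted p = 8.15e-06). The promoter window of 4933421O10Rik, chr4:33031274-33031573 on the minus strand, holds the start of both genes. Its GC content was 80.3%, and it held TGACGT 55 bases before and again just after the start, and a GC box on the other strand. Of members with a promoter, TGACGT was found in 6.45% of the down-regulated ones and 10.45% of those not called, beside 12.2% of tested genes.
4933421O10Rik: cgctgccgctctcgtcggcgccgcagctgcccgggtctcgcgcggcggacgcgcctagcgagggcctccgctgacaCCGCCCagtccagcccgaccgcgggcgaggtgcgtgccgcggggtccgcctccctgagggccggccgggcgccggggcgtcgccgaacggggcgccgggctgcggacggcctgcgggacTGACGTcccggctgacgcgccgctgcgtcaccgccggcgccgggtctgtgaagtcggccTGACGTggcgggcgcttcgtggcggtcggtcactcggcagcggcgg

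In the other pairs with both genes down-regulated, the coding gene 4933402N03Rik (-1.22 ± 0.20) faced the lncRNA 1700029B22Rik (-2.92 ± 0.32), with 156 bases between the starts. 4933402N03Rik was at 282, 368, 348, 179 and 244 in WT and 117, 170.3, 106, 111 and 97.5 in KI, without overlap. 1700029B22Rik was at 413, 458, 461, 214 and 228 and 68.1, 53.0, 70.0, 25.002 and 23.9, again without overlap. 4930471C04Rik (-1.39) faced the testis protease gene Prss52 (-0.69), 4930526L06Rik (-1.01) faced Ms4a13 (-0.77) and 4930579P08Rik (-0.85) faced 1700030O20Rik (-0.68). The adjusted p of these 3 members was 0.00153, 0.045 and 0.00759.

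In other pairs only 1 gene was called. The lncRNA 4930455F16Rik fell (-1.58, adjusted p = 0.000147), and its neighbour Gm5766 had a fitted change of 0.44 (adjusted p = 0.0530). In turn, Stard6, a sterol carrier gene of germ cells, fell (-1.20, adjusted p = 2.76e-05) beside 4930503L19Rik, which was not called (-0.26, adjusted p = 0.127). In a pair made of 2 members, 4930455B14Rik fell (-0.87, adjusted p = 0.000877) and 4930452B06Rik, now Cfap20dc, had a change of -0.09 (adjusted p = 0.685). The difference between the genes of a pair was not tested.

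**Figure D5:**
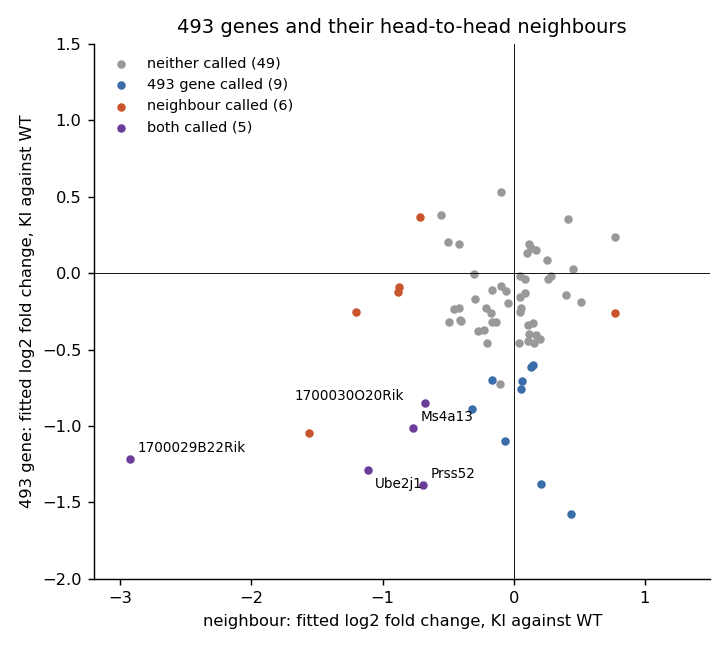
Fitted log2 fold change of KI against WT of 69 head-to-head pairs, with the neighbour on the horizontal and the RIKEN-493 gene on the vertical axis and 1 point per pair, coloured by which gene was called. The 5 pairs with both genes called lie at the lower left, and 9 pairs in which only the gene of the vertical axis was called spread along neighbours near 0. In the pair made of 2 members, the called 4930455B14Rik is shown as the neighbour.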

How the data were processed

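RNA of germ cells from 5 WT and 5 KI mice was analysed as 1 library per mouse, assigned to genotype and number by the labels. Per the labels and the study's methods, adapters were trimmed by the authors, who then used STAR for alignment to mm10, the Partek E/M model for counts on the RefSeq_v91 annotation, and DESeq2; tool versions are not given in the sources used here. The values the authors deposited are a signal per gene and library, namely reads divided by a size factor. Within each library 100% of values under 5000 reads came out as whole reads, within 0.1, so that reads were recovered by division. Reads on genes ranged from 12722086 to 16422347 per library, and 3 reads correspond to 2.61 to 3.62 normalized counts. Every column was assigned (columns not assigned, 0), and columns with the authors' own comparison, which hold fold changes and p-values, were not used.

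limma 3.58.1 (R 4.3.3) with a variance trend was fitted to log2(value + 1) of the 15389 genes of 15507 that passed filterByExpr of edgeR 4.0.16 on the recovered reads, KI against WT, with Benjamini-Hochberg adjustment over all of them. A fold change is on that scale, which understates the change of low genes. Called means an adjusted p under 0.05 and at least a 1.5-fold change, as in the study. Alternatives were edgeR's quasi-likelihood test and DESeq2 1.42.0 on recovered reads, scaling to library totals, upper quartile or TMM, pseudocounts of 0.1 and 10, other filters and thresholds, a replicate block, libraries 1 to 3 and 4 to 5 alone, and each library left out. No set test was run.

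The members and lists were chosen with earlier results of these data known. Named members were the 10 largest falls and rises (51 and 5 members met the level of 100 normalized counts without overlap between genotypes), the 5 highest in level, the 3 highest per kilobase of exon, and the 3 uncalled members above 100 with the smallest standard error. The other 8 rises, the genes of meiosis and the neighbours were named after their values were seen. Gene types and promoters are from RefSeq (GRCm38.p6), matched for 379 and 309 members, 12 of them by an older symbol. The end listed by the authors was reduced by 1, after which it matched the RefSeq end for 87.9% of members; starts matched for 87.3%. Exon lengths and overlaps are from GENCODE. No source says that counting used strand, so reads of a gene and its antisense partner cannot be told apart.

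As a check of pairing, the deviations from the genotype mean of same-numbered libraries had r of 0.306, 0.105, 0.280, 0.216 and 0.462 for numbers 1 to 5, all over 0.1, and each number matched its own best except number 3, which matched number 2. The p-values and standard errors printed are from the fit without the numbers, and a fit with them as a replicate block was an alternative. The pairing comes from the data alone, since the labels do not say what a number marks. Libraries of 1 genotype differed by 2.66 to 46.6 times the chi-square expected from counting, so none was deposited in duplicate.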

Additional observations from a re-analysis of the deposited data

Results flagged for a closer look

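The 21 named members and the share of reads taken by all RIKEN-493 genes were searched for a single value that stands apart. Dixon's criterion was applied to the 5 libraries of each genotype, 44 groups in all. Chance sets apart about 1 in 20 of these. One was found. The KI 5 library held 2721 normalized counts of 4933411K16Rik, while the other 4 KI libraries held 3494 to 3735. The gap was 0.762 of the range of the 5. KI 5 was the lowest KI library and still below every WT library, and the fall of 4933411K16Rik was called without it.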

How the results depend on the processing

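Down-regulated members numbered 73 to 132 over the alternatives on all libraries that kept the filter. With a filter at a mean of 50 normalized counts, which tested 239 members, 69 were down-regulated. The number of up-regulated members moved more. It was 31 when scaled to library totals, 24 in libraries 1 to 3 alone, 7 in libraries 4 and 5 alone and 8 at an adjusted p under 0.01. With 1 library left out it ran from 7 (without KI replicate 2) to 19, while down-regulated members ran from 90 to 112, the median over the 371 members (log2) from -0.42 to -0.31 and all called genes from 1971 to 2303. The median was -0.17 when scaled to library totals, where the median of all genes was 0.25. All called genes numbered 3529 by adjusted p alone. With the replicate block 120 members were down-regulated and 17 up-regulated, and the pairing changed no call of a named member. Of 504 values of named members under alternatives, 492 stayed on their side of the thresholds, 11 lost and 1 gained a call, and none reversed with a call. Calls were lost for 4930539E08Rik (6 settings), 4931428F04Rik (2), 4933415F23Rik (2) and 4930453N24Rik (1); the cause was not tested. Members of a few reads per library limit what this depth can show, and 8 could not be tested.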

Other observations

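There were 15 pairs of adjacent RIKEN-493 genes within 50000 bases of each other, 13 of them with both genes tested. In none were both called and in 6 only 1 was called, where 32.6% of members were called. Of all 371 tested members, 293 had a fitted change below 0, a share against which the signs of pairs are to be read. The fitted changes had the same sign in 9 pairs and opposite signs in 4. Among the former, 4933430N04Rik and 4930453L07Rik on chromosome 8 had changes of -0.73 and -0.45, neither of them called. Among the latter, 4930568D16Rik on chromosome 2 fell, with a log2 fold change of -1.27 (limma, adjusted p = 8.54e-05), and 4930402F06Rik, 7833 bases away, had a change of 0.54 (adjusted p = 0.172). On chromosome 14 the lncRNA 4930521O11Rik rose (1.35, adjusted p = 0.0208), and 4933406F09Rik, 30554 bases away, had a change of -0.29.

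Members with present-day names were a mixed group. 4930524N10Rik, now Samt2b and X-linked, fell from 200.49 to 109 normalized counts (-0.88, adjusted p = 0.00122), the 1 X-linked fall among the members. 4931440F15Rik, now Fem1al, was at 1697 in WT and 1695 in KI (-0.01, adjusted p = 0.978). 4931406P16Rik, now Garre1, had a change of 0.12 (adjusted p = 0.404), and 4930502E18Rik, now Ct55, a cancer-testis gene, had a change of -0.49 (adjusted p = 0.178). 4932438A13Rik, the counterpart of KIAA1109, a large lipid transfer protein, was at 3591 to 5811 in WT and 3573 to 6611 in KI, a change of -0.19 (adjusted p = 0.463). These genes were named after their values were seen.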
